A study of Mus musculus with 4 samples.

Results

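The hypoxia-response genes examined here were 10 genes that many cell types raise when oxygen falls: *Bnip3*, *Egln3*, *Ndrg1*, *Adm*, *Pdk1*, *P4ha1*, *Car9*, *Ankrd37*, *Ddit4* and *Hk2*. The rule lists them by name and uses no measured value, though earlier results of these data were known when they were listed, and all 10 were found among the 32285 genes of the count tables. The data were single-cell RNA sequencing counts of unsorted cells from 2 libraries of mouse testicular organoids (TOs) and 2 libraries of mouse testes. TOs are spheroids that form when testicular cells of ICR mouse pups, a non-transgenic outbred stock, are dissociated and left to reassemble in microwells with basement membrane extract. They were grown at an air–liquid interface in MEMα with serum replacement, antioxidants, FSH and testosterone, and they have no blood supply. The series' design gives 28 days for both TOs and testes, whereas its dissociation protocol speaks of day 21 TOs. The paper's methods speak of day 28 TOs. Days of TOs are counted from the start of culture of the pup cells. The number is thus not the age of TO cells since birth, and the groups were not matched for it. The testes had no treatment. Organoids were made in separate batches, but no source used here ties a batch to a library, so batch and replicate cannot be told apart. Each gene was compared between TOs and testes within a cell type, on UMIs (single captured RNA molecules) summed per library.

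Cells sense oxygen through the hypoxia-inducible factors, dimers of an alpha subunit (*Hif1a* or *Epas1*) with *Arnt*. With oxygen present, the prolyl hydroxylases (*Egln1*, *Egln2*, *Egln3*) mark the alpha subunits and the ubiquitin ligase subunit *Vhl* targets them for breakdown. With little oxygen the dimer persists, binds short hypoxia response elements in DNA and raises genes for glycolysis, vessel signals, collagen modification and acid balance. In the testis, vessels run only between the seminiferous tubules, so the germ cells inside the tubules receive oxygen by diffusion. Several of these genes also respond to other signals, such as glucocorticoids and amino acid stress in the case of *Ddit4*.

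The promoters of the genes whose levels differed in at least 1 cell type are printed here, because the core of a hypoxia response element is short enough to be seen by eye. The core was searched as ACGTG or GCGTG on both strands, so that CACGT and CACGC mark it on the other strand, and CACGTG holds it on both strands and counts as 2. Sequences are from RefSeq (GRCm38.p6, the same assembly as the mm10 build named in the submitters' processing notes), 5′ to 3′ on the gene's strand. The windows lie upstream of the annotated start of transcription and run from 20 bases before the outermost upstream core to 20 bases after the innermost one or to the start, and capitals mark the cores. The *Adm* window is chr7:110627547-110627627 on the + strand, *Bnip3* is chr7:138909517-138909643 on the − strand, *P4ha1* is chr10:59323113-59323295 on the + strand, *Pdk1* is chr2:71873126-71873170 on the + strand and *Ddit4* is chr10:59951861-59951977 on the − strand.
Adm: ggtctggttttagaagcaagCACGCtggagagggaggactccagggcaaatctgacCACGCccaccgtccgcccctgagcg
Bnip3: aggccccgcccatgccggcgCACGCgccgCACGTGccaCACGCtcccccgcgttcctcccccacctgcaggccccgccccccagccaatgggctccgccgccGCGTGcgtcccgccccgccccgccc
P4ha1: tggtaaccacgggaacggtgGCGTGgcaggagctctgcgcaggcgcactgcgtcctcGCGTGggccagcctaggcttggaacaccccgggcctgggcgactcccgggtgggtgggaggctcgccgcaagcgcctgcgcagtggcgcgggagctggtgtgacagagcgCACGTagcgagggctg
Pdk1: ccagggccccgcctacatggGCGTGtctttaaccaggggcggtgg
Ddit4: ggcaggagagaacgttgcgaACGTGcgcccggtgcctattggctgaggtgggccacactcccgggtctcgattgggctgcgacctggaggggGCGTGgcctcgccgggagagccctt

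The *Bnip3* window held 5 cores, 4 of them close together, the *P4ha1* window held 3, the *Adm* and *Ddit4* windows held 2 each and the *Pdk1* window held 1. Of the 10 genes, 9 had a promoter in the table (250 bases before to 50 after the start), with 2 starts for *Pdk1*, and *Ndrg1* was not among them. A core lay in 9 of these 10 promoters (90%), against 14380 of all 32851 promoters (43.8%), and the median GC content was 66.7% against 52.7%. The cores themselves are rich in C and G, and a match to such short letters is no evidence of binding.

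**Figure D1:**
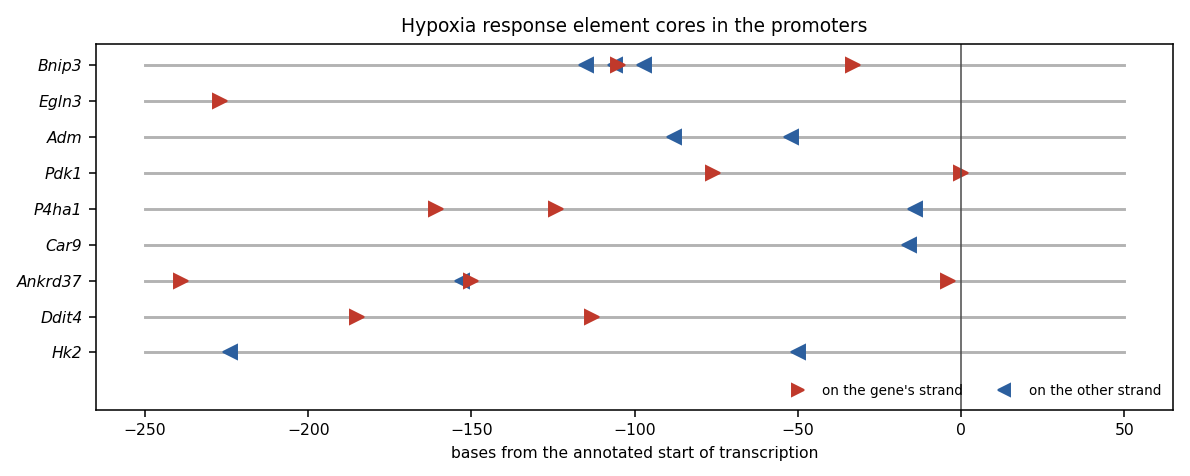
Positions of hypoxia response element cores in the promoters of the genes found in the RefSeq table. The horizontal axis gives bases from the annotated start of transcription, grey lines span the 300 bases searched, and triangles mark the centre of each core on the gene's strand (red) or on the other strand (blue); *Pdk1* is drawn for its start with cores, and *Bnip3* has the most cores, 5.

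The libraries held 11826 to 14643 barcodes with 74988295 to 119966959 UMIs, and 8713 to 9867 cells per library were kept. Any pair of libraries shared 30 to 55 barcodes. TO cells had medians of 5480 and 7561 UMIs and testis cells of 2549 and 3271, so TO cells were deeper over all types together. The median mitochondrial shares were 3.37% and 3.38% against 1.18% and 0.81%, with testis spermatids at 0.2828% and 0.1968%. Within Sertoli cells the shares were 5.999% and 7.2% against 7.833% and 7.181%. Within Leydig cells they were 5.447% and 5.758% against 5.101% and 6.585%. The TO and testis shares overlapped in Sertoli, Leydig and myoid cells. Both TO libraries were higher in macrophages, stromal, spermatogonia-like and spermatocyte-like cells. Spermatids made up most testis cells, and their RNA was also found in the other cells: the sum of 8 spermatid genes was 1892 to 12420 CPM (a gene's UMIs scaled to the total of the summed cells) in the somatic cell types of testes and at most 3.36 CPM in those of TOs. The hypoxia-response genes were at 0 to 6.23 CPM in the testis spermatids themselves. Cells in TOs that grouped with testis endothelial cells (69 and 80 cells) had *Pecam1* and *Flt1* at 0 and only 2 of 8 endothelial markers at 10 CPM or more, so they are not called endothelial, and the TO cells that grouped with spermatids (107 and 45) had 94.9 and 267 CPM of spermatid genes against 16080 and 109700 CPM. Both groups are described without a test.

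The 10 genes did not move as a group between TOs and testes in most cell types. In spermatocyte-like cells all 5 that could be tested had a positive log2 fold change, beside 46.1% of all genes. The cells compared there were not alike, as given below. *Adm*, which encodes the vasodilator peptide adrenomedullin, rose 22.9-fold in Sertoli cells and 4.39-fold in myoid cells of TOs, and *Bnip3*, a mitochondrial outer membrane protein that starts the removal of mitochondria, rose 3.00-fold in Sertoli cells. *P4ha1*, the catalytic subunit of collagen prolyl 4-hydroxylase, rose 2.63-fold in spermatogonia-like cells, and *Ddit4*, an inhibitor of mTORC1 signalling, fell to 0.361 of its testis level in Leydig cells. Not all of these calls held under other settings, as given below. *Egln3* and *Car9*, which serve elsewhere as marker genes of hypoxia, were close to 0 in most cell types of TOs and testes. A gene was called when the edgeR quasi-likelihood test gave a Benjamini-Hochberg adjusted p below 0.01, over all genes of that cell type, with a fold above 2.

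**Figure D2:**
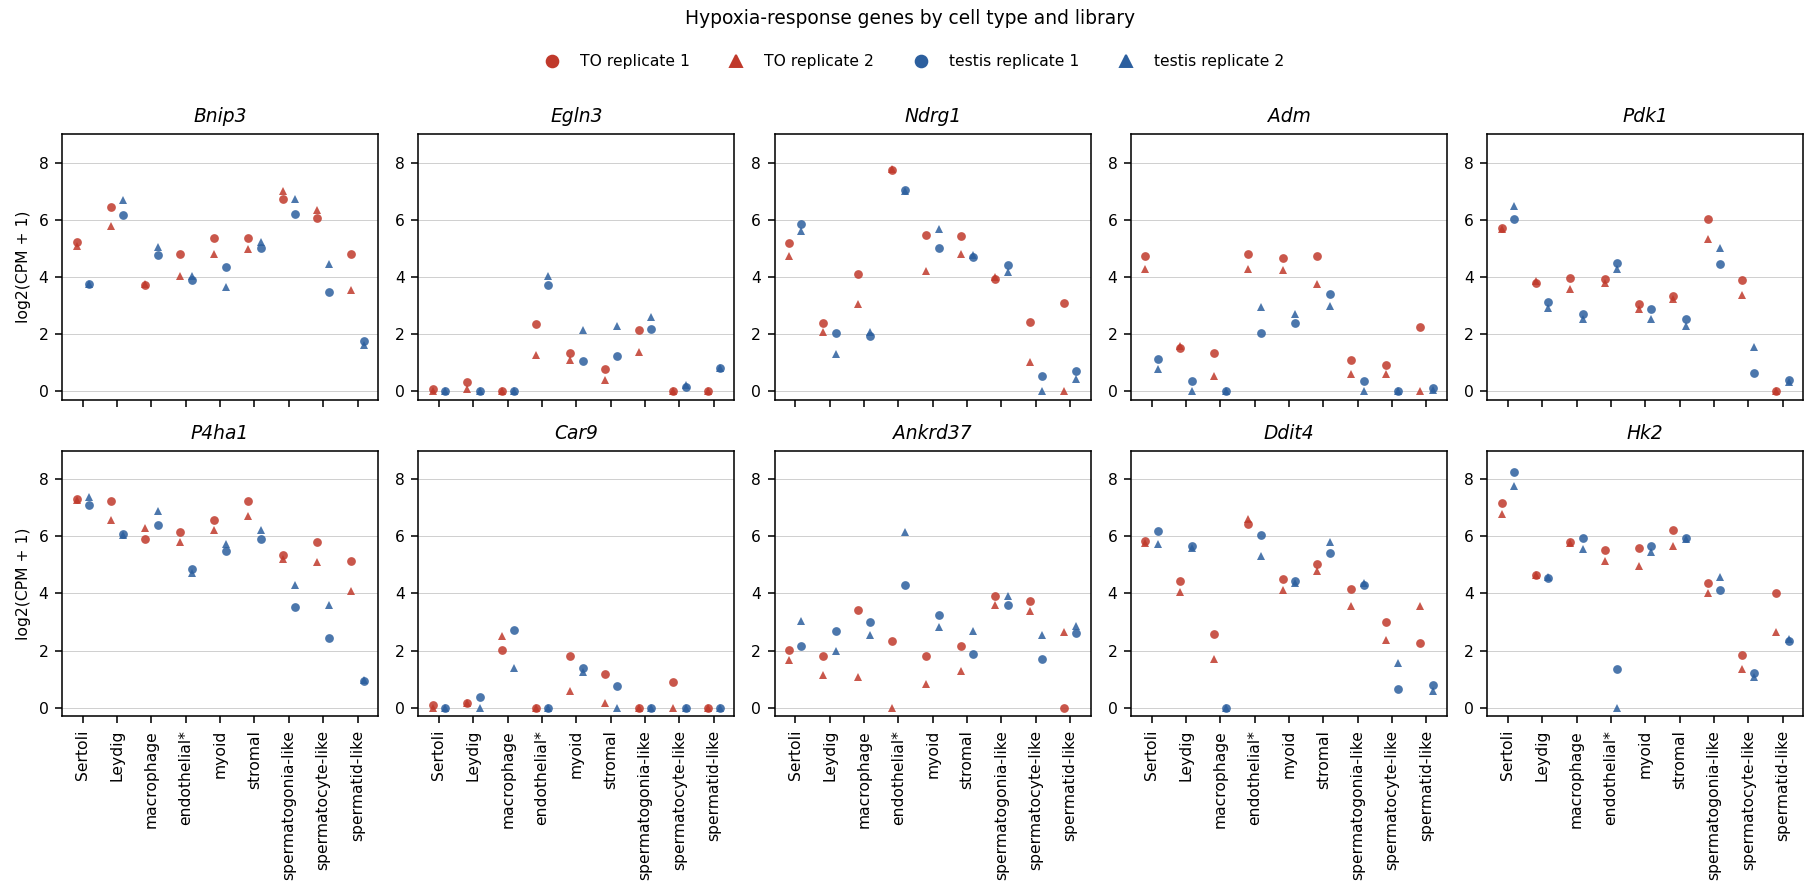
Level of each hypoxia-response gene in each cell type and library, as log2(CPM + 1) of the UMIs summed per library; red points are TOs and blue points are testes, with circles for replicate 1 and triangles for replicate 2. The asterisk marks the cells grouped as endothelial, of which those in TOs lack *Pecam1* and *Flt1*. *Adm* is higher in both TO libraries in each of 7 cell types. This rests on few UMIs in macrophages and spermatogonia-like cells and on 2 UMIs in spermatocyte-like cells of TOs, and *Adm* was not tested in these types. The share of all genes that separate in this way was not counted. *Egln3* and *Car9* lie near 0 in most types.

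Of the 8 genes that could be tested in Sertoli cells, 2 (*Adm* and *Bnip3*) rose and 0 fell, where 9.22% of all 14596 genes tested rose and 21.2% fell. In myoid cells 1 of 9 (*Adm*) rose, beside 4.16% of all genes higher and 19.9% lower. In Leydig cells 1 of 8 (*Ddit4*) fell and 0 rose, beside 2.19% of all genes higher and 12.5% lower. The share that fell was thus 12.5%, the same as that of all genes. For the directions without a call, edgeR gave an unadjusted p below 0.05 to 3 genes lower in Sertoli cells, 2 higher in Leydig cells and 1 lower in myoid cells, and DESeq2 called 1, 0 and 0 of these. In spermatogonia-like cells 1 of 8 (*P4ha1*) rose, beside 0.748% of all genes higher and 13% lower, and there 0 genes were lower at an unadjusted p below 0.05 or by DESeq2.

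No hypoxia-response gene was called by edgeR in macrophages, where 4 could be tested and 3.35% of all genes were higher and 16.3% lower. There, 1 had an unadjusted p below 0.05 in the direction of TOs (*Pdk1*) and 1 in that of testes (*Bnip3*), and DESeq2 called 0. None of 9 was called in stromal cells either, where 1.85% of all genes were higher and 15.6% lower; 3 had an unadjusted p below 0.05 with the higher level in TOs and 2 with the higher level in testes, and DESeq2 called 1 (*P4ha1*). In spermatocyte-like cells 3 of 5 (*Pdk1*, *P4ha1* and *Bnip3*) were called higher and none lower by edgeR (0 at an unadjusted p below 0.05, and 0 by DESeq2), beside 21.1% of all genes higher and 34% lower. The median log2 fold change of the tested genes was −0.29 in Sertoli cells, 0.32 in Leydig cells, 0.00052 in myoid cells and 0.17 in stromal cells, against 0.02, −0.03, 0.05 and 0.07 over all genes. In macrophages, spermatogonia-like and spermatocyte-like cells it was −0.053, −0.12 and 1.9, against 0.065, −0.0007 and −0.23 over all genes. Of the somatic types, only Sertoli cells had more than 1 call.

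**Figure D3:**
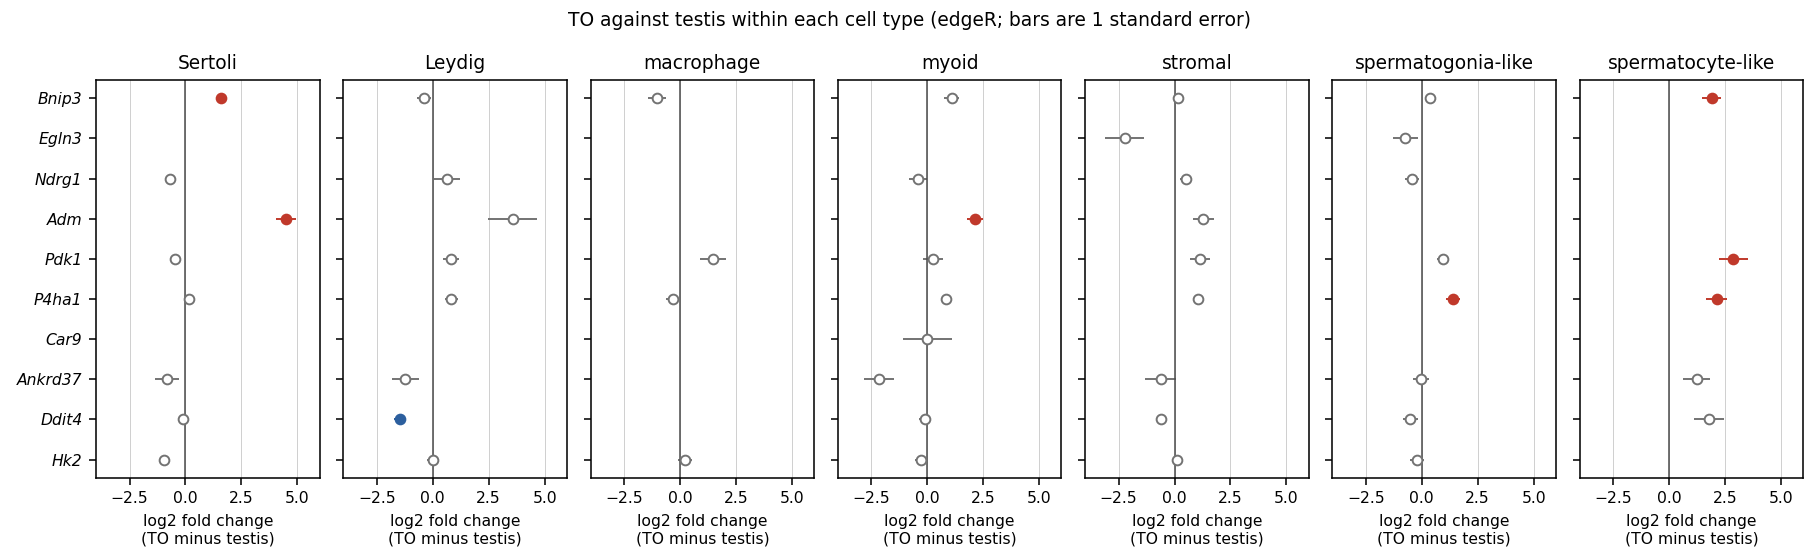
log2 fold change of each hypoxia-response gene (TO minus testis) in 7 cell types, from edgeR on UMIs summed per library, with bars of 1 standard error. Filled red points were called higher in TOs, filled blue points lower, open points were tested and not called, and a missing point had too few UMIs for a test; *Adm* in Sertoli cells stands farthest from 0, at 4.52.

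*Adm* was the signalling gene of the list and the one with the widest difference. In Sertoli cells, the nurse cells of the tubule, TO replicate 1 had 25.4 CPM (369 UMIs) and TO replicate 2 had 18.5 CPM (138 UMIs), whereas testis replicate 1 had 1.16 CPM (3 UMIs) and testis replicate 2 had 0.728 CPM (1 UMI). In this order, replicate 1 before replicate 2, the values of each gene are given throughout. The TO and testis values did not overlap, and the log2 fold change was 4.52 ± 0.45 (SE, edgeR, adjusted p = 0.000261). The testis side rests on 4 UMIs in all, so the pooled fold of 22.8 has an exact 95% counting interval of 8.86 to 84.1. After each cell was thinned to 1500 UMIs, 3.12% and 2.07% of Sertoli cells in TOs had an *Adm* UMI, against 0 of 465 and 1 of 247 cells in testes (0% and 0.405%). Without thinning the shares were 15.3% and 12.5% against 0.645% and 0.405%, at median depths of 10010 and 11330 UMIs in TOs and 6154 and 3300 UMIs in testes. In spermatocyte-like cells, taken as a type that should lack *Adm*, the thinned share was 0% in all 4 libraries.

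The difference was present within Sertoli clusters that TOs and testes shared. In the largest, led by *Qpct* and *Cst12*, *Adm* was at 20.8 and 13.6 CPM in TOs and 1.33 and 0 CPM in testes. A smaller cluster led by *Wfdc18* and *Tsx* had 28.6 and 19.8 CPM against 0 and 3.05 CPM. The highest levels among Sertoli clusters, 60.1 and 53.6 CPM, were in a cluster led by *Wfdc18* and *Edn1*, which held 165 and 70 TO cells but 0 and 1 testis cells. With the largest cluster alone, a choice made after the data were seen, *Adm* was still called higher.

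In myoid cells, the contractile cells around the tubule and vessels, *Adm* was at 24.5 and 18.1 CPM in TOs and 4.27 and 5.47 CPM in testes, with no overlap (log2 fold change 2.13 ± 0.38, SE, edgeR, adjusted p = 0.00264). The myoid group joined 2 clusters, one led by *Acta2* and one led by *Rgs5*, a gene of vascular mural cells, and the *Rgs5*-led cluster made up 4.15% and 6.60% of it in TOs but 31.1% and 33.7% in testes. *Adm* in that cluster was at 72.0 and 93.0 CPM in TOs and at 0 and 2.14 CPM in testes. In the *Acta2*-led cluster it was at 21.6 and 10.8 CPM against 6.18 and 7.03 CPM, and without the *Rgs5*-led cluster (chosen after the data were seen) the log2 fold change was 1.25 and no longer called (edgeR, adjusted p = 0.080). Leaving out testis replicate 1 or 2 also ended the call (edgeR, adjusted p = 0.101 and 0.071), in fits that called none of all 16148 and 16641 genes.

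Outside Sertoli and myoid cells the difference in *Adm* was smaller in UMIs or not called. In stromal cells it was at 25.5 and 12.4 CPM against 9.49 and 6.91 CPM, a log2 fold change of 1.28 ± 0.47 (SE) that was not called (edgeR, adjusted p = 0.0856). Leydig cells, which make testosterone, had 30 and 34 UMIs in TOs against 1 and 0 in testes, a pooled fold of 13.3 with a counting interval of 2.30 to 533 that missed the threshold (edgeR, adjusted p = 0.0489). Macrophages had 3 and 2 UMIs in TOs and none in testes, and spermatogonia-like cells 6 and 2 UMIs against 1 and 0, too few for a test. The TO libraries lay above the testis libraries in all 7 cell types, but in spermatocyte-like cells this rests on 2 UMIs in TOs and none in testes. The share of all genes that separate in this way was not counted. Within TOs, *Adm* was high in Sertoli, myoid and stromal cells, whose ranges overlapped, as in the cells grouped as endothelial, and at most 2.00 CPM in Leydig cells, macrophages, spermatogonia-like and spermatocyte-like cells. In testes the order differed at the top, with stromal cells (6.91 to 9.49 CPM) above myoid cells (4.27 to 5.47 CPM) and Sertoli cells at about 1 CPM.

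**Figure D4:**
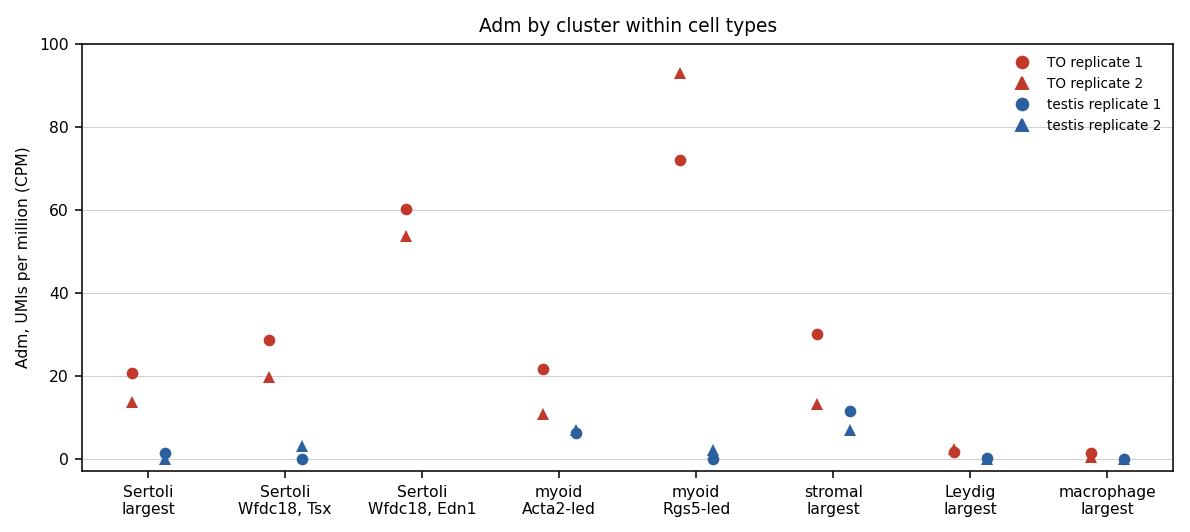
*Adm* in CPM within clusters of cells, for TO (red) and testis (blue) libraries, with circles for replicate 1 and triangles for replicate 2. The cluster labelled Wfdc18, Edn1 has no testis points because it held 0 and 1 testis cells; the highest values are those of TOs in the *Rgs5*-led myoid cluster, 72.0 and 93.0 CPM, where the testes are at 0 and 2.14 CPM.

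Of the mitochondrial and glycolytic genes, *Bnip3* and *Hk2* went in opposite directions in Sertoli cells. *Bnip3* was at 36.5 and 33.2 CPM in TOs and at 12.4 and 12.4 CPM in testes (log2 fold change 1.58 ± 0.22, SE, edgeR, adjusted p = 0.00115). The values of replicates were close together and the groups did not overlap, and in the largest Sertoli cluster the values were 35.4 and 31.0 against 13.3 and 12.8 CPM. Thinned shares of Sertoli cells with a *Bnip3* UMI were 4.80% and 5.78% in TOs and 1.94% and 1.21% in testes, against 27.6% and 27.4% and 6.24% and 6.07% before thinning, and testis spermatids were at 0.388% and 0.361% after it. *Hk2*, the hexokinase that traps glucose in the cell, was at 142 and 108 CPM in TOs and 306 and 217 CPM in testes. Both TO values lay below both testis values, but the fold missed the threshold of 2 by little (log2 fold change −0.98 ± 0.21, SE, edgeR, adjusted p = 0.00716).

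*Hk2* passed that threshold under 9 of 17 other settings, among them DESeq2 and the largest Sertoli cluster alone (log2 fold change −1.20). Its values in this cluster were 137 and 105 CPM in TOs and 338 and 265 CPM in testes. In the cluster led by *Wfdc18* and *Tsx* they were 82.5 and 84.8 against 71.5 and 67.1 CPM, so the lower level in TOs was not seen there. That cluster was 8.75% and 16.3% of Sertoli cells in TOs and 27.5% and 53.8% in testes. In the thinned cells, 18.8% and 14.7% of Sertoli cells in TOs and 33.1% and 23.1% in testes had an *Hk2* UMI (65.9% and 57.0% against 66.7% and 47.0% without thinning, which turns the direction of the means), and testis spermatids 0.573% and 0.541%. Sertoli cells had more *Hk2* than any other cell type in TOs and in testes, without overlap with the next type, stromal cells (49.9 to 72.7 CPM in TOs and 59.1 to 61.0 CPM in testes).

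In the other somatic types and in spermatogonia-like cells *Bnip3* and *Hk2* were not called. *Bnip3* had its highest mean in spermatogonia-like cells, at 106 and 128 CPM in TOs and 71.8 and 105 CPM in testes, and in Leydig cells it was at 86.1 and 53.5 against 70.8 and 103 CPM with overlap. In macrophages it was lower in TOs, at 12.1 and 12.5 against 26.4 and 32.0 CPM, without a call (log2 fold change −1.03, edgeR, adjusted p = 0.0813). In myoid cells it was at 40.4 and 27.2 against 19.2 and 11.6 CPM (log2 fold change 1.10, edgeR, adjusted p = 0.0350). *Hk2* was at 24.0 and 23.8 against 22.5 and 22.8 CPM in Leydig cells, where the pooled ratio of 1.05 had a counting interval of 0.886 to 1.26. In macrophages *Hk2* was at 54.5 and 53.2 against 59.8 and 46.4 CPM, with overlap.

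*Pdk1* encodes a kinase that switches off pyruvate dehydrogenase and so keeps pyruvate out of mitochondria. Its levels were highest in Sertoli cells, at 51.0 and 49.8 CPM in TOs and 64.2 and 88.1 CPM in testes, and in spermatogonia-like cells, at 63.5 and 39.0 against 21.1 and 31.2 CPM. The difference pointed down in the first (log2 fold change −0.49, edgeR, adjusted p = 0.0779) and up in the second (log2 fold change 0.95, edgeR, adjusted p = 0.0392), and neither was called. In spermatogonia-like cells, 6 of 16 other settings called *Pdk1* higher. In Leydig cells it was at 12.8 and 13.5 against 7.67 and 6.52 CPM and in macrophages at 14.6 and 11.0 against 5.57 and 4.81 CPM, again without a call or an overlap. The TO libraries lay above the testis libraries in 5 of 7 cell types for *Pdk1*, and below them in Sertoli cells. The share of all genes that separate in this way was not counted. Spermatocyte-like cells were among the 5, although within their shared cluster the values overlapped, as given below.

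*P4ha1* hydroxylates prolines of collagen, which the triple helix needs to be stable. In spermatogonia-like cells it was at 39.4 and 36.1 CPM in TOs and 10.5 and 18.5 CPM in testes (log2 fold change 1.39 ± 0.30, SE, edgeR, adjusted p = 0.00669). The testis libraries differed in which spermatogonia they held: a cluster led by *Hist1h2ap* and *Crabp1* was 56.0% of these cells in testis replicate 1 and 3.16% in replicate 2, where another cluster with no cells of other libraries was 47.8%. Without testis replicate 1 the log2 fold change was 0.98 and not called (edgeR, adjusted p = 0.0473). In the cluster led by *Glis3* and *Sdc4*, which was 22.4% to 36.4% of these cells in each library, *P4ha1* was at 36.2 and 28.3 CPM in TOs against 14.2 and 18.6 CPM in testes.

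In somatic cells *P4ha1* was also higher in both TO libraries of 3 types, without a call. Stromal cells, the fibroblast-like interstitial cells, had 149 and 105 CPM in TOs and 59.0 and 72.9 CPM in testes (log2 fold change 1.05 ± 0.23, SE, edgeR, adjusted p = 0.0153). Myoid cells had 94.6 and 73.6 against 43.3 and 51.9 CPM (log2 fold change 0.82, edgeR, adjusted p = 0.0194), and Leydig cells 151 and 93.3 against 66.2 and 64.9 CPM (log2 fold change 0.83, edgeR, adjusted p = 0.0782). Sertoli cells, which had the highest mean level in both groups, were at 158 and 152 against 135 and 166 CPM, with overlap and a pooled ratio of 1.07 (counting interval 0.980 to 1.17). In macrophages the values were lower in TOs, at 59.0 and 77.8 against 82.1 and 118 CPM, and not called.

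*Ddit4* and *Ndrg1* respond to several stresses besides low oxygen. In Leydig cells *Ddit4* was at 20.9 and 15.8 CPM in TOs and 49.7 and 47.2 CPM in testes, without overlap (log2 fold change −1.47 ± 0.27, SE, edgeR, adjusted p = 0.00577). *Ddit4* was the 1 hypoxia-response gene that edgeR called lower in any of the 7 cell types, and this call was lost without TO replicate 1, TO replicate 2 or testis replicate 1 (edgeR, adjusted p = 0.0102, 0.0519 and 0.014, log2 fold changes −1.68, −1.29 and −1.40). In the largest Leydig cluster, led by *Cyp17a1*, *Ddit4* was at 18.4 and 13.5 CPM in TOs and 51.1 and 47.3 CPM in testes. A second Leydig cluster led by *Eya1*, with *Stc1* among its leading genes, was 19.3% and 22.7% of Leydig cells in TOs and 5.64% and 2.39% in testes, and had *Ddit4* at 34.3 and 23.8 CPM in TOs. After thinning, a *Ddit4* UMI was found in 3.27% and 2.75% of Leydig cells of TOs, against 4.55% and 9.25% of those of testes (17.4% and 16.3% against 25.1% and 34.0% before thinning).

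*Ddit4* was not called in any other cell type, and its direction varied. Sertoli cells had 55.7 and 53.4 against 71.2 and 51.7 CPM, and myoid cells 21.4 and 16.6 against 20.8 and 19.8 CPM, both with overlap. Stromal cells had 31.9 and 26.8 against 42.0 and 54.5 CPM (log2 fold change −0.61, edgeR, adjusted p = 0.0872). Macrophages and spermatocyte-like cells had the higher levels in TOs, without overlap. Macrophages had 10 and 10 UMIs of *Ddit4* in TOs and none in testes, which is at least 1.39-fold higher when 3 UMIs over both testis libraries are taken as the floor. Spermatocyte-like cells were at 6.96 and 4.14 against 0.561 and 1.93 CPM, a pooled fold of 4.63 from 16 and 17 UMIs (counting interval 2.19 to 9.74; edgeR, adjusted p = 0.0195). The cells grouped as endothelial, which were not tested, were at 84.2 and 95.6 against 64.4 and 38.9 CPM.

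*Ndrg1*, a cytoplasmic protein tied to differentiation and stress, was highest in the cells grouped as endothelial, at 214 and 221 CPM in TOs and 130 and 127 CPM in testes. In Sertoli cells it was at 35.7 and 25.5 against 56.5 and 47.3 CPM, lower in TOs without overlap but not called (log2 fold change −0.68 ± 0.21, SE, edgeR, adjusted p = 0.0336). In stromal cells it was at 42.0 and 26.6 against 25.1 and 26.1 CPM, and in myoid cells the TO libraries themselves differed most, at 43.3 and 17.5 against 31.5 and 49.9 CPM. Macrophages had 32 and 33 UMIs of *Ndrg1* in TOs and 2 and 2 in testes, a pooled fold of 3.38 with a counting interval of 1.26 to 12.8, and too few UMIs for the test within that type.

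*Egln3*, *Ankrd37* and *Car9* had the fewest UMIs of the list, with 173, 973 and 100 over all cells. *Egln3*, the oxygen-sensing hydroxylase that the hypoxia-inducible factors themselves raise, was highest in testis endothelial cells, at 12.3 and 15.2 CPM. In spermatogonia-like cells *Egln3* was at 3.44 and 1.56 CPM in TOs against 3.52 and 5.09 CPM in testes, and in stromal cells at 0.703 and 0.326 against 1.36 and 3.84 CPM (log2 fold change −2.23, edgeR, adjusted p = 0.102). Sertoli cells of TOs had 1 *Egln3* UMI in 1566 and 737 cells, and macrophages of both groups had none.

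*Ankrd37*, an ankyrin repeat protein, was also highest in testis endothelial cells, at 18.4 and 69.3 CPM, and was at 14.0 and 11.2 against 11.1 and 14.0 CPM in spermatogonia-like cells. In myoid cells it was at 2.53 and 0.772 against 8.55 and 6.15 CPM, a log2 fold change of −2.17 ± 0.67 (SE) that was not called (edgeR, adjusted p = 0.0345). *Car9*, a membrane carbonic anhydrase that handles acid, had its highest mean level in macrophages, at 3.03 and 4.70 CPM in TOs and 5.57 and 1.60 CPM in testes, with overlap. Its UMIs in TOs and testes were 27 and 5 in macrophages, 34 and 5 in myoid cells and 21 and 1 in stromal cells. In Sertoli cells *Car9* had 1 UMI in TOs and none in testes. A difference in *Egln3* or *Car9* was therefore not detectable in most cell types at this depth.

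The effect of *Bnip3*, *Hk2* and *Pdk1* differed between cell types by a direct test. One edgeR fit with the library as a block compared the change from testis to TO between 4 pairs of cell types, over 17338 genes. Between Leydig and Sertoli cells, 3 genes differed, beside 8.49% of all genes: *Pdk1* (Leydig minus Sertoli, log2 1.52 ± 0.36, adjusted p = 0.0071), *Hk2* (1.21 ± 0.28, adjusted p = 0.0059) and *Bnip3* (−1.70 ± 0.35, adjusted p = 0.00306). Between macrophages and Sertoli cells, where 4.43% of all genes differed, 3 did: *Hk2* (macrophage minus Sertoli, 1.57 ± 0.30), *Bnip3* (−2.20 ± 0.45) and *Ndrg1* (3.12 ± 0.64). *Pdk1* was the 1 gene that differed between spermatogonia-like and Sertoli cells (1.64 ± 0.33, adjusted p = 0.00304), beside 6.73% of all genes. *Ddit4* was the 1 gene that differed between macrophages and Leydig cells, beside 3.88% of all genes, and its fitted value depends on testis macrophages at 0. These differences were not called when either testis library was left out, and not all were called without TO replicate 1 or 2. Such fits keep 1 library in a group, and the share of all genes they called is not given. The losses are therefore not read as a result about these genes. *Adm* did not differ between Leydig and Sertoli cells by this test (−0.93 ± 2.02), which with 1 testis UMI in Leydig cells had little precision.

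Spermatocyte-like cells were the germ cells in which most of the tested genes were higher in TOs, but the cells compared were not alike. *Bnip3* was at 65.3 and 80.3 against 10.2 and 20.9 CPM, *P4ha1* at 54.8 and 33.7 against 4.49 and 11.1 CPM, and *Pdk1* at 13.9 and 9.32 against 0.561 and 1.93 CPM. A cluster led by *Pbx3* and *Sdk1*, with the early meiotic genes *Prdm9* and *Dmc1* among its leading genes, was 75.0% and 69.0% of these cells in TOs and 17.7% and 16.2% in testes, where other clusters of this type made up the rest. Within that cluster *Bnip3* was at 74.5 and 99.7 CPM in TOs and 70.7 and 83.4 CPM in testes, with overlap, and *Pdk1* at 14.9 and 7.28 against 4.33 and 9.45 CPM, also with overlap. For *P4ha1* the TO libraries were above the testis libraries there, at 51.6 and 31.3 against 10.1 and 18.9 CPM.

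The wider set of 53 hypoxia-inducible genes, which holds none of the 10, gave calls in both directions. In Sertoli cells 4 of 44 rose (9.09%) and 6 fell (13.6%), so that the share higher was near the 9.22% of all genes and the share lower was under their 21.2%. *Edn1*, the vasoconstrictor peptide endothelin, was at 116 and 93.0 CPM in TOs and 15.9 and 4.37 CPM in testes (log2 fold change 3.30 ± 0.38, SE, edgeR, adjusted p = 0.000468), and it was a leading gene of the Sertoli cluster found almost only in TOs. *Plod2*, a collagen lysyl hydroxylase, was at 293 and 301 against 103 and 106 CPM (1.59 ± 0.16, edgeR, adjusted p = 0.000261). The genes with the largest falls, *Hk1* (−3.81) and *Pfkp* (−2.07), are glycolytic enzymes, and with spermatid RNA subtracted from the testis sums they were at −0.40 and −0.73 and not called (edgeR, adjusted p = 0.893 and 0.812). That setting left no gene of any kind called in Sertoli cells. Of the classical targets that were not called, *Vegfa* was at 5.78 and 5.23 against 5.03 and 6.55 CPM in Sertoli cells and the glucose transporter *Slc2a1* at 21.9 and 14.2 against 26.7 and 26.2 CPM.

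In Leydig cells 5 of 49 genes of the wider set rose (10.2%, against 2.19% of all genes) and 2 fell (4.08%, against 12.5%). The secreted glycoproteins *Stc1* and *Stc2* were at 54.1 and 107 against 5.68 and 1.78 CPM and at 128 and 203 against 18.5 and 20.5 CPM (log2 fold changes 4.37 and 3.02, edgeR, adjusted p = 0.00122 and 0.000684). *Vegfa*, the main vessel growth signal, was at 46.3 and 43.6 CPM in TOs and 7.39 and 14.2 CPM in testes (log2 fold change 1.98 ± 0.37, SE, edgeR, adjusted p = 0.00635). *Wsb1*, a ubiquitin ligase subunit, rose with a log2 fold change of 2.80 (edgeR, adjusted p = 0.0079). The cluster with *Stc1* among its leading genes made up a larger share of Leydig cells in TOs, as given above. The Leydig cells compared also differed in their markers. *Star* was at 29.2 and 10.05 CPM in TOs against 404.5 and 722 CPM in testes, and *Cyp17a1* at 1305 and 89.8 against 3892 and 11120 CPM. *Hsd3b1* was higher in TOs, at 3220 and 2094 against 1511 and 996 CPM, and *Cyp11a1* and *Insl3* overlapped. The part of this in the Leydig results, *Ddit4* among them, was not tested.

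Myoid cells had 6 of 50 genes of the wider set higher (12%, against 4.16% of all genes) and 5 lower (10%, against 19.9%). Stromal cells had 5 of 51 higher (9.8%, against 1.85%) and 4 lower (7.84%, against 15.6%), so in both types the share lower was under that of all genes. *Bhlhe40*, a transcription repressor, was at 44.0 and 46.4 against 4.81 and 5.47 CPM in myoid cells (log2 fold change 3.14) and at 60.8 and 47.0 against 8.13 and 17.7 CPM in stromal cells (2.19). *Hmox1*, which breaks down haem, rose in myoid cells (2.89), and *Lox*, which cross-links collagen, rose in stromal cells (2.78). *Stc2*, which rose in Leydig cells, fell in myoid cells, with means of 3.43 against 29.2 CPM (−3.08). The *Rgs5*-led cluster was a larger share of the myoid group in testes, as given above.

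In macrophages 4 of 40 genes of the wider set rose (10%, against 3.35% of all genes) and 3 fell (7.5%, against 16.3%), with the transferrin receptor *Tfrc* (log2 fold change 2.18) and the glycolytic enzyme *Pgam1* (1.87) among the higher ones. Spermatogonia-like cells had 1 of 44 higher (*Tfrc*, 2.27%, against 0.748% of all genes) and 6 lower (13.6%, near the 13% of all genes). Spermatocyte-like cells had 17 of 40 higher (42.5%, against 21.1%) and 11 lower (27.5%, under the 34% of all genes). The genes called lower in the most types are abundant in testis spermatids: *Siah2* fell in 7 of 7 types and was at 254 to 273 CPM in testis spermatids, *Hk1* fell in 6 and was at 330 to 579 CPM, *Slc2a3* fell in 6 and was at 134 to 161 CPM, and *Pfkp* fell in 5 and was at 68.2 to 117 CPM. The part of spermatid RNA in these falls was not tested. *Edn1*, *Plod2*, *Stc2*, *Vegfa*, *Bhlhe40* and *Lox* were at 0 to 1.44 CPM in testis spermatids.

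**Figure D5:**
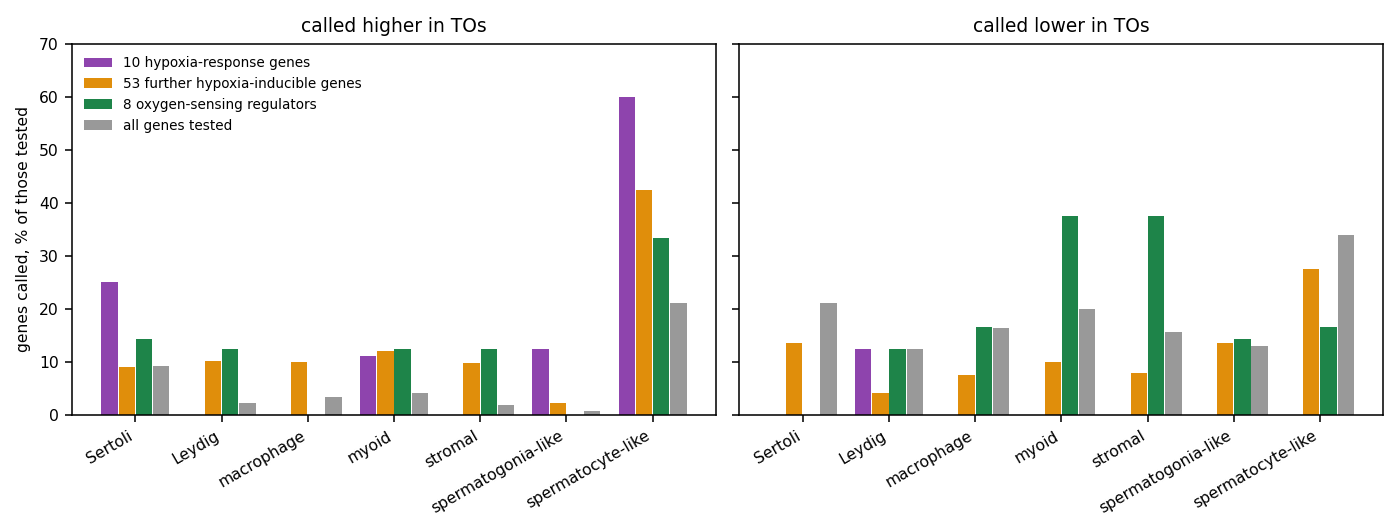
Share of the tested genes called higher (left) or lower (right) in TOs in each cell type, in percent, for the 10 hypoxia-response genes (purple), the 53 further hypoxia-inducible genes (orange), the 8 oxygen-sensing regulators (green) and all genes tested (grey). A missing bar is 0%; the shares of the short lists rest on few genes, such as 2 of 8 in Sertoli cells (25%), where 9.22% of all genes were higher.

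The oxygen-sensing regulators also differed by cell type. *Egln1*, the main hydroxylase that marks the alpha subunits, rose in Sertoli cells, at 305 and 353 CPM in TOs and 110 and 120 CPM in testes (log2 fold change 1.61 ± 0.18, SE, edgeR, adjusted p = 0.00044). It was the 1 of 7 regulators called there, and in Leydig cells it was at 46.6 and 51.4 against 48.9 and 53.4 CPM. *Hif1a* rose in Leydig cells, at 223 and 119 against 43.8 and 49.5 CPM (1.80 ± 0.34, edgeR, adjusted p = 0.00726), and in stromal cells, at 111 and 74.5 against 27.8 and 43.0 CPM (edgeR, adjusted p = 0.0077). In Sertoli cells *Hif1a* was at 177 and 185 against 104 and 119 CPM, a log2 fold change of 0.80 that did not pass the fold threshold. The largest rise of *Hif1a* was in spermatocyte-like cells, at 175 and 177 against 16.5 and 31.9 CPM (2.51). There 2 of 6 regulators were called higher (33.3%, against 21.1% of all genes), between cells that were not alike, as given above.

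*Epas1*, the alpha subunit known for its role in vessels, fell in myoid cells, at 13.4 and 14.2 against 63.6 and 69.7 CPM (log2 fold change −2.27), and in stromal cells (−1.26). The myoid group of testes held the larger share of the *Rgs5*-led cluster, as given above. In the cells grouped as endothelial, *Epas1* was at 28.7 and 43.6 CPM in TOs and 391 and 332 CPM in testes. *Arnt* rose in myoid cells (1.33) and in spermatocyte-like cells, at 57.4 and 51.3 against 10.2 and 14.0 CPM. *Egln2* fell in 6 of the 7 cell types and *Vhl* in myoid and stromal cells, and these were at 282 to 293 CPM and 218 to 253 CPM in testis spermatids. The transcript level of *Hif1a* does not give the amount of its protein, which is set largely by breakdown.

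Genes of other responses moved with these differences in part. Of 7 immediate-early genes, which cells raise within minutes of many stimuli including dissociation, 5 rose in Sertoli cells of TOs, 3 in myoid cells, 1 each in macrophages and stromal cells and 0 in Leydig cells, and 4 of 6 rose in spermatogonia-like and 6 of 6 in spermatocyte-like cells. Among all genes, 9.22% were higher in Sertoli cells, 4.16% in myoid cells, 3.35% in macrophages, 1.85% in stromal cells, 0.748% in spermatogonia-like and 21.1% in spermatocyte-like cells. DESeq2 called 7 in Sertoli cells, 5 in myoid cells, 3 in macrophages, 5 in stromal cells, 1 in Leydig cells and 4 in each germ cell type, and in Leydig cells 4 had an unadjusted p below 0.05 by edgeR. *Fos*, one of these, had means of 250 CPM in TOs and 15.0 CPM in testes in Sertoli cells (log2 fold change 3.95). The 6 amino acid and endoplasmic reticulum stress genes went both ways. In Sertoli cells 2 of 5 tested rose, *Atf4* (2.10) and *Trib3* (4.62), and *Asns* fell (−1.34). *Atf4* also rose in macrophages, myoid and stromal cells, whereas *Ddit3* fell in myoid (−1.57), spermatogonia-like (−1.84) and spermatocyte-like cells (−3.35), in the last of which *Sesn2* rose (2.58). Of the glucocorticoid-responsive genes, 0 of 6 were called in Leydig cells, where *Ddit4* fell, with a median log2 fold change of −0.51 (edgeR, 0 at an unadjusted p below 0.05, and 0 called by DESeq2). Elsewhere *Sgk1* rose in Sertoli cells (1.06) and macrophages (2.125), and *Fkbp5* in myoid cells (1.12). In spermatocyte-like cells *Tsc22d3*, *Fkbp5* and *Sgk1* rose and *Klf9* fell, and none was called in stromal or spermatogonia-like cells. Of the vessel genes, myoid cells had *Cdh5* higher and *Flt1* and *Emcn* lower, 3 of 5 tested, beside 4.16% of all genes higher and 19.9% lower. Under 1 of 17 other settings the change of *Emcn* turned sign (log2 fold change 1.32). The *Rgs5*-led cluster was 4.15% and 6.6% of the myoid group in TOs and 31.1% and 33.7% in testes, and values of these vessel genes without it are not given. The part of the other responses in the levels of *Adm*, *Bnip3* and *Ddit4* was not tested.

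Across the 36 sums of 4 libraries and 9 cell types, the genes with the pattern most like *Adm* among 17954 genes were *Ccn1*, *Gas1* and *Mmp23* (Pearson r of log2(CPM + 1) 0.901, 0.900 and 0.895). *Flt1*, an endothelial receptor, was the nearest to *Ankrd37* (r = 0.751). The 10 genes were not one another's nearest genes: the highest correlations among them were 0.732 for *Ndrg1* with *Ddit4*, 0.719 for *Ndrg1* with *Adm* and 0.706 for *P4ha1* with *Hk2*, whereas *Bnip3* with *Adm* gave 0.036. These are descriptions over sums that share libraries and cells of very different depth. The genes nearest to *P4ha1* were *Zfp182* (0.932), *Sos2* (0.927) and *Ncstn* (0.919), and the nearest to *Bnip3* was *Mrps16* (0.873).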

How the data were processed

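Droplet libraries (10x 3′, v3.1) of 2 TO and 2 testis samples had been aligned to mm10 and counted with Cell Ranger 7.1.0, per the submitters' processing notes, and the authors deposited the whole-number UMI counts per gene and barcode as filtered matrices. The limits for a cell were 1000 and 5000 genes, 20000 UMIs and a mitochondrial share of 10%, after the study's methods, and doublets (0.8% per 1000 barcodes, Scrublet in place of the study's caller) were removed first, 9.46% to 11.7% of barcodes per library. Cells were clustered with scanpy 1.11.5 (Harmony, leidenalg 0.10.2), germ cells a second time, and clusters were named from marker lists. The rule that lets markers among a cluster's leading genes decide between myoid and other names was changed after the clusters had been seen. Cell types are thus rebuilt names, not the authors' annotation.

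UMIs were summed per library and cell type and tested with edgeR 4.0.16 in R 4.3.3 (TMM, filterByExpr, quasi-likelihood test, 2 TO against 2 testis libraries in a type), with Benjamini-Hochberg adjusted p over all genes of the type. A call needs an adjusted p below 0.01 and a log2 fold change beyond 1. DESeq2 1.42.0, other scalings, filters, groupings of cells, a subtraction of spermatid RNA from testis sums and leaving out each library were tried, and the restrictions to 1 cluster and without the *Rgs5*-led cluster were chosen after seeing the data. Scripts were tested on simulated data. An exact permutation test of 2 against 2 samples cannot give a p below 0.33, so none is given. The study calls the testis libraries biological replicates, and it states that its sequenced organoids came from independent batches. No source used here says which animals or batch each TO library came from. The p-values thus measure the spread between these libraries, which for TOs may be technical. Counting intervals are exact at 95% and cover counting error only.

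The 10 genes, the further lists and the tests were chosen with earlier results of these data known. All 10 genes are described, and of the other lists the text names the called genes with the largest changes in a cell type, the regulators that were called, and a few compared genes chosen after their values were seen. Fold changes of pooled libraries are ratios of summed UMIs. Promoters are from RefSeq (GRCm38.p6).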

Additional observations from a re-analysis of the deposited data

Results flagged for a closer look

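The change from testis to TO differed in at least 1 of 4 pairs of cell types for 5 of the 10 genes, by a test of the difference itself (edgeR, library as a block). In each single pair, 3.88% to 8.49% of all genes differed. The share of all genes that differed in at least 1 of the 4 pairs was not counted, so the 5 of 10 has no matching share beside it. On the log2 scale, Leydig minus Sertoli cells gave 1.52 for *Pdk1*, 1.21 for *Hk2* and -1.70 for *Bnip3*. Macrophages minus Sertoli cells gave 1.57 for *Hk2*, -2.20 for *Bnip3* and 3.12 for *Ndrg1*, the last with 2 and 2 UMIs in testis macrophages. Macrophages minus Leydig cells gave 8.79 for *Ddit4*, a fitted value that depends on the prior count because testis macrophages had no UMI of it. Spermatogonia-like minus Sertoli cells gave 1.64 for *Pdk1*. None of these passed the threshold when testis replicate 1 or testis replicate 2 was left out. Those fits keep 1 testis library, and the share of all genes they called is not given.

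In cells that the tests left out, some of the 10 genes were higher and others lower in TOs. In the cells grouped as endothelial, of which those in TOs had *Pecam1* and *Flt1* at 0, the pooled ratio of TOs over testes was 1.69 for *Ndrg1*, 4.49 for *Adm*, 2.29 for *P4ha1*, 1.74 for *Ddit4* and 47.7 for *Hk2*. The *Hk2* ratio rests on 46 UMIs in TOs and 1 in testes, with a counting interval of 8.15 to 1925. In the same cells the ratio was below 1 for *Ankrd37* (0.0391 from 2 and 53 UMIs, 0.00462 to 0.149), *Egln3* (0.183 from 3 and 17 UMIs, 0.0344 to 0.633) and *Pdk1* (0.664, 0.331 to 1.29). In the cells grouped as spermatids the ratio was 28.1 for *P4ha1*, from 12 UMIs in TOs and 49 in testes (13.6 to 53.7), where the TO cells had few spermatid transcripts, and 0.384 for *Ankrd37* (0.0097 to 2.16). These ratios compare cells that differ in their markers, and they have no test over libraries.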

How the results depend on the processing

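Of the 8 called differences in single genes, 105 of 131 values under other settings were also called in the same direction, 26 were no longer called and 0 reversed. Of 43 differences that were not called, 22 of 705 values passed the threshold and 37 changed sign without passing it.

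In Sertoli cells the count of the 10 genes called higher was 2, and 0 with spermatid RNA subtracted, a setting that left no gene at all called in 6 of 7 cell types. The count lower in Sertoli cells was 0, but 1 with RLE size factors, total UMIs only, DESeq2, genes of other cells left out, no Harmony, types from each cell's marker score and the largest cluster only, and 2 at an adjusted p below 0.05 with no fold threshold. In Leydig cells the 1 lower became 0 with the replicate block, every gene with at least 1 UMI, genes of other cells left out, subtraction and no doublet removal, and the 0 higher became 1 at an adjusted p below 0.05. In myoid cells the 1 higher became 2 with the replicate block, 0 with subtraction, no Harmony, marker scores and without the *Rgs5*-led cluster, and 3 at an adjusted p below 0.05, and the 0 lower became 1 with the replicate block and at that p. In stromal cells the 0 higher became 1 with the replicate block, DESeq2 and that p, and 2 with every gene. In spermatogonia-like cells the 1 higher became 2 with every gene, no upper limits, no doublet removal, no Harmony and that p, and 0 with subtraction or a minimum of 500 genes. In spermatocyte-like cells the 3 higher became 0 with subtraction and 1 with no Harmony. The causes were not tested.

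Leaving out 1 library changed which genes were called in Sertoli, Leydig, myoid, spermatogonia-like and spermatocyte-like cells, and in the pairs of cell types compared directly. Such fits keep 1 library in a group, so their counts are not given. *Bnip3* in spermatocyte-like cells was not called without TO replicate 2 (adjusted p = 0.0188, edgeR), nor *Pdk1* without testis replicate 1 (adjusted p = 0.0158, edgeR). The labels number the replicates but do not say that same-numbered libraries are paired. The correlation of same-numbered deviations was 0.019 to 0.170 in 7 cell types. With 2 pairs only, this cannot tell whether same-numbered libraries share an effect. The replicate block stands here only.

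Without thinning, the share of cells with a UMI differed by 13.3 percentage points for *Adm* in Sertoli cells (2.39 thinned), 21.3 for *Bnip3* (3.72), -12.7 for *Ddit4* in Leydig cells (-3.89) and 5.65 for *Adm* in myoid cells (1.30), and for *Hk2* in Sertoli cells it turned from -11.3 to 4.63, with TO cells deeper. Over all genes, the number higher in TOs went from 334 to 570 in Leydig and from 295 to 494 in stromal cells with DESeq2, and with the replicate block from 362 to 712 in macrophages, 648 to 1123 in myoid and 295 to 618 in stromal cells. With total UMIs only, the median of all genes moved from -0.23 to 0.14 in spermatocyte-like cells and from 0.065 to -0.16 in macrophages. Few testis UMIs limit *Adm*, *Egln3* and *Car9*.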
